A study of Mus musculus with 9 samples.

Results

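Cells that are stressed or dying release ATP, and a set of surface proteins breaks it down and senses the products. The 10 genes described here cover that set: the ectonucleotidase genes Nt5e, Entpd1, Entpd2 and Entpd3, the adenosine receptor genes Adora1, Adora2a and Adora2b, and the P2Y receptor genes P2ry1, P2ry2 and P2ry6. They were chosen by gene symbol, and each matched 1 of the 55414 rows of the count table. RNA of Balb/c mouse retinas was sequenced in 3 groups of 3 libraries: light damage with A74, light damage alone, and control. All 9 libraries carry the same batch label, the genotype field holds only library names, and the labels state no age, sex, light exposure, sampling time, vehicle or A74 dose. Nor do they spell out A74; the title of the series names P2RX7, an ATP-gated channel, as the inhibited target. The labels do not say how many animals a group holds or whether each library is 1 animal, so the p-values measure the spread between these libraries.

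Extracellular ATP is hydrolysed in steps. CD39, encoded by Entpd1, and its relatives encoded by Entpd2 and Entpd3 remove phosphates from ATP and ADP, and CD73, encoded by Nt5e, turns the resulting AMP into adenosine. Adenosine then acts on receptors that lower (Adora1) or raise (Adora2a and Adora2b) cyclic AMP, while the P2Y receptors respond to ADP (P2ry1), to ATP and UTP (P2ry2) or to UDP (P2ry6). In the mouse retina CD73 is known as a surface marker of rod photoreceptors. In microglia, the resident macrophages, the UDP receptor is known for its role in phagocytosis.

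The libraries held 14787972 to 18740434 counts. Libraries of a group did not all match in sex-linked transcripts. Xist had 17227 to 18172 counts in the 3 A74 libraries, 1 to 4 in the light damage libraries, and 1, 7 and 22253 in controls. Y-linked counts were 0 in the A74 libraries and 4249 to 5832 in replicates 1 and 2 of light damage and of control, with 0 in replicate 3 of both. Light damage replicate 3 thus had neither Y-linked counts nor Xist above 1 count. A list of anterior eye genes, first written on these libraries, summed to 138 to 275 CPM in A74 replicate 1 and in replicates 1 and 2 of light damage and control, against 12.5 to 15.9 CPM in the other 4 libraries. Rod markers were abundant in every library. Ly6g of neutrophils, Cd3e of T cells and Lim2 of lens had no count in any library.

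RefSeq promoter sequences of build GRCm38.p6, each with 250 bases before and 50 after an annotated start, were at hand for 8 of the 10 genes. Of the genes that differed between groups, 3 are shown: Nt5e, which was lower after light damage, and Entpd2 and P2ry2, which were higher. Capitals mark matches, on either strand, to the AP-1 motif TGACTCA, the GC box GGGCGG and the hypoxia element core ACGTG.

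Nt5e, chr9:88327359-88327658, plus strand: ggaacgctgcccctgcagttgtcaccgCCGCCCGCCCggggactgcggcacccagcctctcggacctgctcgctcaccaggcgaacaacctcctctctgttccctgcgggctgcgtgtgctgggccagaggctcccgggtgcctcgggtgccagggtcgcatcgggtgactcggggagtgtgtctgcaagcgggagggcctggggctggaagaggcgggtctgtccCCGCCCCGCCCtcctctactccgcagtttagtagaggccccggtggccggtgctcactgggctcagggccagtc

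Entpd2, chr2:25395624-25395923, plus strand: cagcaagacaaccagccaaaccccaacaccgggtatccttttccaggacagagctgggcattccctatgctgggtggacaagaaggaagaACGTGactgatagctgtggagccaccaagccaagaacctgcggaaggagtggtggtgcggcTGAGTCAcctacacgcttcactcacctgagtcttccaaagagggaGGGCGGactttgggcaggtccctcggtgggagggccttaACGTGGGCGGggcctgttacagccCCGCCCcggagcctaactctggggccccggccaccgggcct

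P2ry2, chr7:101012004-101012303, minus strand, first of 2 annotated starts: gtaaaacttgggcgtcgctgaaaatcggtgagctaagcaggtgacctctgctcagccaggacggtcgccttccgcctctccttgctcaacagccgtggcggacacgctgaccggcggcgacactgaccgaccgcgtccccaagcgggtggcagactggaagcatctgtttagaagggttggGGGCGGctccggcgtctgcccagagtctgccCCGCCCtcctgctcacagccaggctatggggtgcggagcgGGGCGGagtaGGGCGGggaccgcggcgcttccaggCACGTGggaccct

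The Nt5e promoter held 4 GC box matches, partly overlapping, and none of the other motifs. That of Entpd2 held 1 AP-1 match, 3 GC boxes and 2 hypoxia cores, of which 1 overlaps a GC box. P2ry2 had 4 GC boxes and the palindrome CACGTG, which reads as the hypoxia core on both strands. Of the promoters not shown, that of Entpd3, called in no comparison, also held 1 AP-1 match and this palindrome. Those of Adora2b and P2ry1, also called in no comparison, held 6 and 2 GC boxes. The first of 2 Adora1 windows held 3 GC boxes and 1 hypoxia core. Among all 32851 promoter windows of this length, 5.2% held the AP-1 motif, 35.7% the GC box and 19.6% the hypoxia core. The photoreceptor CRX-type motif TAATCC (7.06% of all windows), the PU.1-type motif GAGGAAGT (3.2%), the CRE TGACGTCA (1.79%) and the STAT motif TTCCNGGAA (1.15%) were not found in any of the 11 windows of these genes. GC content was 71.0% for Nt5e, 62.0% for Entpd2 and 67.3% for P2ry2, with a median of 52.7% over all windows. These matches describe the letters only.

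Light damage was first compared with control, which asks how RNA levels of these genes differ after the injury. Nt5e was lower after light damage, while Entpd2, P2ry2 and P2ry6 were higher. The edgeR quasi-likelihood test, with p-values adjusted over the 17272 genes tested, called 3 higher and 1 lower. Over all genes tested, 25.8% were called, 13% as higher and 12.8% as lower. Of the 10 genes, 9 passed the filter on low counts, and Adora2a did not. P2ry6 passed only through its light damage libraries, so a difference was built into its entry, and these counts are a description that supports nothing further. The median log2 fold change was 0.42 over the 9 and 0.0080 over all genes tested.

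**Figure D1:**
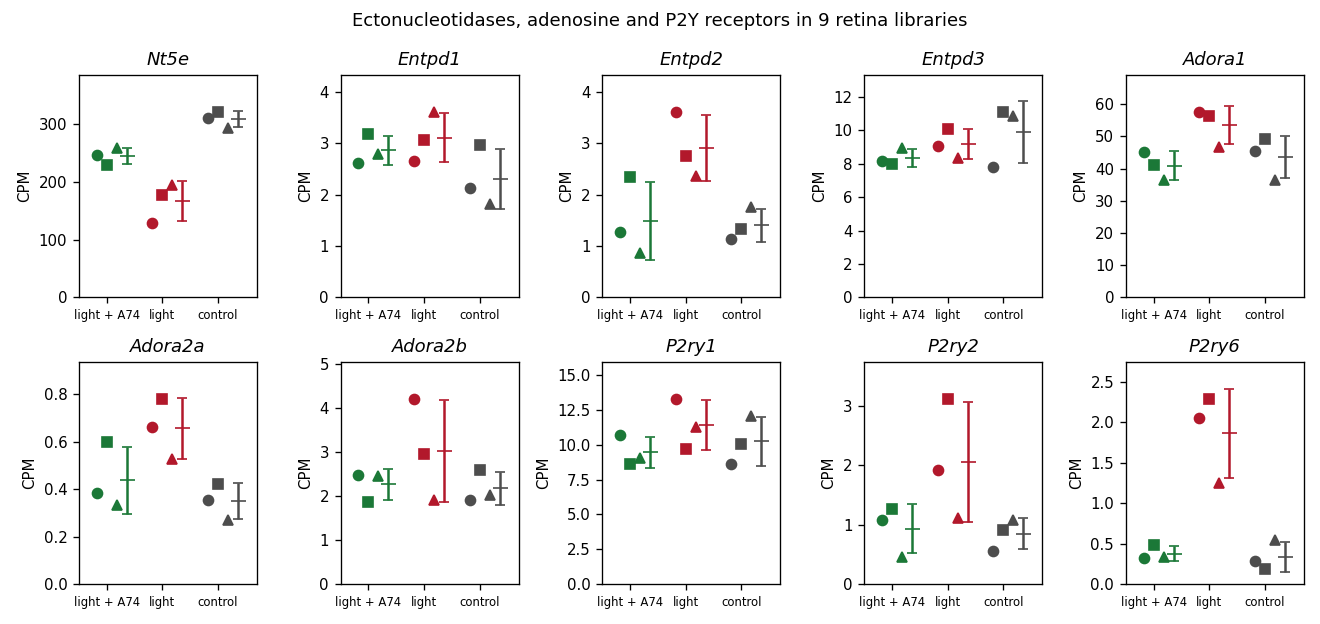
Levels of the 10 genes in CPM (counts relative to TMM-scaled library totals), 1 panel per gene, in light damage with A74, light damage and control. Circles, squares and triangles are replicates 1, 2 and 3, and bars give mean ± SD (n = 3). For Nt5e the light damage libraries lie at 129 to 195 CPM, below the A74 libraries and the controls, and for P2ry6 they lie at 1.25 to 2.29 CPM, above both.

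Among the enzymes, Nt5e had 129, 177 and 195 CPM in light damage libraries, against 310.4, 321 and 294 CPM in controls. Every light damage library was below every control. The log2 fold change was -0.89 (SE 0.13, edgeR adjusted p = 0.00181), and it stayed called without any 1 of the 6 libraries, between -1.01 and -0.72. Rod markers moved the same way: 10 of 13 were called lower, and their summed level was 36261 to 52511 CPM in light damage and 62386 to 67779 CPM in control. In bulk RNA, fewer cells of a type and less RNA per cell cannot be told apart. Log2 fold changes of the 13 rod markers ran from -0.89 to 0.11, so Nt5e lay within their range, at its lower end. Relative to the summed rod markers, Nt5e was lower in light damage by a log2 difference of -0.34. The light damage libraries did not overlap the controls on that scale (exact two-sided permutation p = 0.1, the smallest that 3 against 3 libraries allow).

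Entpd2, whose enzyme prefers ATP over ADP, had 3.61, 2.76 and 2.36 CPM after light damage, against 1.13, 1.33 and 1.75 CPM in controls. The groups did not overlap, and replicate 1 was highest in light damage and lowest in control. Its log2 fold change was 1.05 (SE 0.33, edgeR adjusted p = 0.0255). The call rested on single libraries: the edgeR adjusted p was 0.105 without control replicate 1, 0.0792 without control replicate 2, and, leaving out light damage replicates 1 or 2, 0.0997 or 0.0577. In GENCODE M21, 612 exonic bases of Entpd2 are shared with Npdc1 on the same strand, so its counts are uncertain. Npdc1 itself differed by 0.12 on the log2 scale and was not called (edgeR adjusted p = 0.233).

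Entpd1, the gene of CD39, had 2.65, 3.07 and 3.61 CPM in light damage libraries and 2.12, 2.96 and 1.82 CPM in controls. The ranges overlapped, and the log2 fold change of 0.42 was not called (SE 0.24, edgeR adjusted p = 0.211). CD39 is a known surface protein of microglia, whose markers rose: 11 of 14 tested were called higher, and the sum of the list without P2ry12 was 219 to 376 CPM in light damage and 78.6 to 82.9 CPM in control. Relative to that sum, Entpd1 was lower in light damage by a log2 difference of -1.39, without overlap (exact permutation p = 0.1). Any gene that changed little would be lower on this scale, as the sum itself rose, so this p gives no support. Log2 fold changes of the 14 markers tested, P2ry12 among them, ran from -0.57 to 3.96, a range that holds the 0.42 of Entpd1. Entpd3, which acts on ATP and ADP, lay at 8.33 to 10.1 CPM in light damage and at 7.77 to 11.1 CPM in control (log2 fold change -0.11, SE 0.15, edgeR adjusted p = 0.625).

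None of the adenosine receptor genes was called by edgeR, 1 of 2 tested had an unadjusted p under 0.05 (Adora1), and DESeq2 called none. Adora1, the inhibitory receptor, had 57.6, 56.4 and 46.8 CPM in light damage libraries, against 45.5, 49.2 and 36.4 CPM in controls. Only light damage replicate 3 lay within the control range. The log2 fold change was 0.30 (SE 0.12, edgeR adjusted p = 0.0872). With the replicate number as a block it was 0.30 and called (edgeR adjusted p = 0.00569), and it was also called when control replicate 2 (edgeR adjusted p = 0.0389) or light damage replicate 3 (edgeR adjusted p = 0.0178) was left out. It was called too without a count filter, with the tissue term, with the Y term and without light damage replicate 3 and A74 replicate 1 (edgeR adjusted p = 0.00126, 0.00377, 0.00776 and 0.0120). Exons of Adora1 overlap Mybph on the opposite strand by 1162 bases, and Mybph had at most 0.27 CPM in a library.

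Adora2b, a receptor with low affinity for adenosine, had 4.21, 2.96 and 1.90 CPM after light damage and 1.91, 2.59 and 2.02 CPM in controls. Its ranges overlapped (log2 fold change 0.47, SE 0.28, edgeR adjusted p = 0.234). Leaving out light damage replicate 3, the lowest of its group, gave 0.71, which was called (edgeR adjusted p = 0.0464). Adora2a, the high-affinity stimulatory receptor, had 11, 15 and 8 counts in light damage libraries and 5, 7 and 4 in controls. In CPM these were 0.656 ± 0.128 and 0.348 ± 0.0764 (SD, n = 3 each), without overlap (exact permutation p = 0.1). With no filter its log2 fold change was 0.91 (SE 0.56, edgeR adjusted p = 0.346).

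P2ry6 had the largest log2 fold change of the 9 genes tested. Counts were 34, 44 and 19 in light damage libraries, against 4, 3 and 8 in controls, or 2.05, 2.29 and 1.25 CPM against 0.283, 0.181 and 0.539 CPM. All light damage libraries were above all controls, with replicate 3 lowest in light damage and highest in control. The log2 fold change was 2.48 (SE 0.42, edgeR adjusted p = 0.000584), and it stayed called without any 1 of the 6 libraries, between 2.16 and 3.00. Relative to the microglia sum described above, P2ry6 was higher in light damage by a log2 difference of 0.73. That difference was within the spread of the libraries, whose ranges overlapped (exact permutation p = 0.3).

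P2ry2 had 1.93, 3.12 and 1.12 CPM in light damage libraries, against 0.565, 0.905 and 1.08 CPM in controls. The lowest light damage library, replicate 3, lay just above the highest control. Its log2 fold change of 1.28 was called (SE 0.42, edgeR adjusted p = 0.0327), but not when single libraries were left out. The edgeR adjusted p was 0.131, 0.0794 and 0.0508 without control replicates 1, 2 and 3, and 0.0527 and 0.217 without light damage replicates 1 and 2. DESeq2 did not call it (DESeq2 adjusted p = 0.0568). Beside Entpd2 and P2ry2, genes of glia moved: all 7 reactive glia markers were called higher, with sums of 338 to 516 CPM in light damage and 119 to 123 CPM in control. Of 9 Müller glia markers 8 were called higher, with sums of 6609 to 7286 CPM in light damage and 5190 to 5941 CPM in control. The part of glia in the changes of Entpd2 and P2ry2 was not tested.

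P2ry1, the ADP receptor, lay at 9.67 to 13.3 CPM in light damage and 8.62 to 12.1 CPM in control. The ranges overlapped, and the log2 fold change was 0.15 (SE 0.15, edgeR adjusted p = 0.498).

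**Figure D2:**
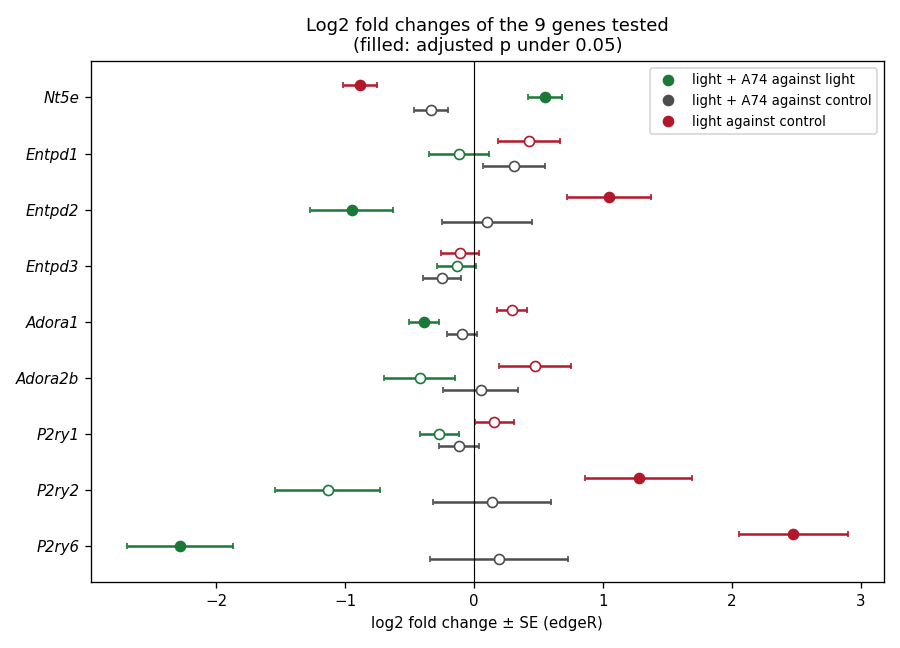
Log2 fold changes with SE of the 9 genes tested, in 3 comparisons (light damage with A74 against light damage, light damage with A74 against control, and light damage against control). Filled points have an edgeR adjusted p under 0.05. P2ry6 lies farthest from 0 in the 2 comparisons that involve light damage alone, at 2.48 and -2.28, and no point of A74 against control is filled.

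Light damage with A74 was then compared with light damage alone. Nt5e was higher with A74, and Entpd2, Adora1 and P2ry6 were lower. Of the 9 genes tested 1 was called higher and 3 lower, where 18.3% of all genes tested were called, 9.07% higher and 9.19% lower. The median log2 fold change was -0.39 over the 9 and -0.00031 over all. This comparison shares the light damage libraries with the previous one, so a high or low light damage library pushes both in opposite directions, and neither is independent of the other. Y-linked counts were 0 in all 3 A74 libraries and in 1 of 3 light damage libraries. Xist had 17227 to 18172 counts in the A74 libraries and 1 to 4 in the light damage libraries. A difference that goes with Xist thus cannot be told apart from A74 in this comparison. A term for Y transcripts does not adjust for Xist, as light damage replicate 3 had neither Y-linked counts nor Xist above 1 count. With a term for Y transcripts in the fit, 1 of the 9 genes was called, P2ry6, and 745 of all genes.

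Nt5e had 246, 229.9 and 258 CPM in A74 libraries, against 129, 177 and 195 CPM with light damage alone. All A74 libraries were above all light damage libraries, and the log2 fold change was 0.55 (SE 0.13, edgeR adjusted p = 0.0219). The call was lost on leaving out light damage replicate 2 (edgeR adjusted p = 0.0508), A74 replicate 1 (edgeR adjusted p = 0.0619) or A74 replicate 3 (edgeR adjusted p = 0.0863), and likewise with the Y term (0.47, edgeR adjusted p = 0.164) and in a fit of the 2 groups alone (0.55, edgeR adjusted p = 0.0565). Of 13 rod markers 11 were called higher with A74, with sums of 59924 to 63435 CPM, against 36261 to 52511 CPM in light damage. Relative to that sum, Nt5e differed by 0.10 on the log2 scale, with overlapping ranges (exact permutation p = 0.3).

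P2ry6 had 5, 8 and 5 counts in A74 libraries, or 0.319, 0.479 and 0.332 CPM, against 2.05, 2.29 and 1.25 CPM with light damage alone. Its log2 fold change was -2.28 (SE 0.41, edgeR adjusted p = 0.00153). It stayed called without any 1 of the 6 libraries, between -2.50 and -2.10, and with the Y term (-2.11, edgeR adjusted p = 0.0367). Of 14 microglia markers tested 12 were called lower with A74, with sums of 82.8 to 114 CPM, against 219 to 376 CPM in light damage. Relative to that sum P2ry6 was lower with A74 by a log2 difference of -0.68, without overlap (exact permutation p = 0.1). Log2 fold changes of the 14 markers tested, P2ry12 among them, ran from -3.71 to 0.27 with a median of -1.82, so P2ry6 lay within their range. P2ry6 passed the count filter only through its light damage libraries, so its call here is no support.

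Entpd2 had 1.28, 2.33 and 0.863 CPM in A74 libraries, against 3.61, 2.76 and 2.36 CPM in light damage. A74 replicate 2 lay just under the lowest light damage library. The log2 fold change of -0.95 was barely past the threshold (SE 0.32, edgeR adjusted p = 0.0492). The edgeR adjusted p was 0.187 and 0.102 without light damage replicates 1 and 2, and 0.128 and 0.192 without A74 replicates 1 and 3. It was also not called by DESeq2 (DESeq2 adjusted p = 0.0814), with the Y term (edgeR adjusted p = 0.215), with the tissue term (edgeR adjusted p = 0.0607) or in a fit of the 2 groups alone (edgeR adjusted p = 0.0761).

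Adora1 had 45.1, 41.3 and 36.4 CPM with A74, against 57.6, 56.4 and 46.8 CPM with light damage alone. The groups did not overlap, and the log2 fold change was -0.39 (SE 0.12, edgeR adjusted p = 0.0393). The call was lost on leaving out light damage replicates 1 or 2 (edgeR adjusted p = 0.134 and 0.121) or A74 replicates 2 or 3 (edgeR adjusted p = 0.0992 and 0.131). With the Y term it was -0.16 (edgeR adjusted p = 0.358).

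P2ry2 had 1.08, 1.26 and 0.465 CPM with A74, against 1.93, 3.12 and 1.12 CPM in light damage, where replicate 3 fell within the A74 range. Its log2 fold change was -1.14 (SE 0.41, edgeR adjusted p = 0.0630), and leaving out light damage replicate 3 gave -1.42, which was called (edgeR adjusted p = 0.00950). The other 4 genes tested, Entpd1, Entpd3, Adora2b and P2ry1, had log2 fold changes between -0.42 and -0.12 and overlapping ranges. Adora2a had 6, 10 and 5 counts with A74 and 11, 15 and 8 with light damage alone (exact permutation p = 0.2).

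Between light damage with A74 and control, edgeR called 0 of the 9 genes, where 0.892% of all genes tested were called, 0.591% higher and 0.301% lower. Of the 9 genes 1, Nt5e, had an unadjusted p under 0.05, and DESeq2 called 0. Nt5e had 245 ± 14.3 CPM with A74 and 309 ± 13.7 CPM in control (SD, n = 3 each), and every A74 library was below every control. The difference was -0.33 on the log2 scale with an SE of 0.13 (edgeR adjusted p = 0.270), and it was called without a count filter (edgeR adjusted p = 0.00405) and in a fit of the 2 groups alone (edgeR adjusted p = 0.00335). Relative to the rod sum, Nt5e was lower with A74 than in control by a log2 difference of -0.24, without overlap (exact permutation p = 0.1). All A74 libraries had high Xist and no Y-linked counts, and among controls only replicate 3 was alike. Differences that go with sex-linked transcripts are thus partly mixed with A74 here too. With the Y term Nt5e had -0.42 (edgeR adjusted p = 0.271). The other 8 genes had log2 fold changes from -0.25 to 0.31, with overlapping ranges. P2ry6, with at most 8 counts in any of these 6 libraries, had 0.19 (SE 0.54, edgeR adjusted p = 0.902).

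The comparisons were also split by the anterior eye genes. Light damage against control gave P2ry6 a log2 fold change of 3.21 among libraries high in these genes (2 against 2) and 1.20 among the others (1 against 1). In the same order, Nt5e had -1.05 and -0.59, Entpd2 had 1.36 and 0.43, P2ry2 had 1.76 and 0.05, and Adora1 had 0.27 and 0.36. For A74 against light damage, P2ry6 had -2.74 (1 against 2) and -1.59 (2 against 1), Nt5e 0.68 and 0.32, Entpd2 -1.31 and -0.54, and Adora1 -0.34 and -0.27. For these genes the sign was the same in both sets, although P2ry2 was near 0 in the smaller one. In light damage and control, the libraries high in these anterior eye genes were also those with Y-linked counts. All A74 libraries had high Xist counts and no Y-linked counts. The split thus cannot be told apart from sex-linked transcripts, and the shared signs are a description only. Between light damage and control the sign turned for Adora2b (0.65 and -0.09), P2ry1 (0.29 and -0.10) and Entpd3 (0.02 and -0.38), and between A74 and light damage for Adora2b (-0.52 and 0.17) and Entpd3 (-0.23 and 0.02). Single libraries stand behind 1 side or both in every split but the first, and the difference between the sets was not tested.

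**Figure D3:**
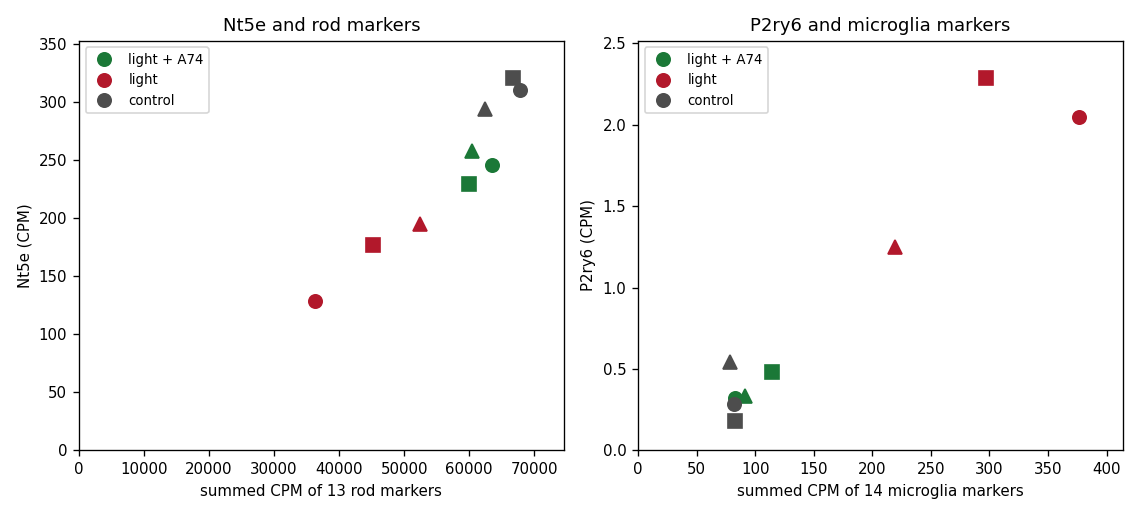
Left, Nt5e in CPM against the summed CPM of 13 rod markers. Right, P2ry6 in CPM against the summed CPM of 14 microglia markers (the list without P2ry12). Each point is a library, coloured by group, with circles, squares and triangles for replicates 1, 2 and 3. The 3 light damage libraries have the lowest rod sums, from 36261 to 52511 CPM, and the highest microglia sums, from 219 to 376 CPM.

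Levels can be set side by side per length, here as CPM per kb of merged exons in GENCODE M21. In controls Nt5e was highest, at 35.9 ± 1.59, followed by Adora1 at 7.55 ± 1.14 (SD, n = 3). Entpd3 (2.64 ± 0.494) and P2ry1 (2.38 ± 0.404) came next and did not differ beyond their spread. Adora2b (1.18 ± 0.199), Entpd2 (0.660 ± 0.149), Entpd1 (0.412 ± 0.105) and P2ry2 (0.216 ± 0.0665) stood below them. P2ry6 (0.116 ± 0.0640) and Adora2a (0.114 ± 0.0250) were lowest and alike within their spread. After light damage Nt5e was still highest, at 19.4 ± 3.97, and P2ry6, at 0.644 ± 0.189, stood above Entpd1 (0.557 ± 0.0863) and P2ry2 (0.523 ± 0.257), with overlapping ranges.

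Patterns over the 9 libraries were compared among the 15713 tested genes that averaged 1 CPM or more (P2ry6 itself averaged less), as a description of points that share their libraries and groups. The genes most like Nt5e in Pearson's r of log2 CPM were Fam3c, Lrit2 and A930036K24Rik, each at 0.99 or 1.00. P2ry6 was most like St3gal5, Paqr7 and 9330188P03Rik (0.98 to 0.99). Entpd2 was nearest to Fam114a1 (0.97), Fbxo16 (0.97) and Nes (0.96), the last of which encodes the intermediate filament nestin. Adora1 was nearest to Cpq, Necab2 and Gldc (each 0.98), and P2ry2 to Galnt18 (0.96), Ncs1 (0.95) and Maged1 (0.95).

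A wider list of 46 genes for nucleotide release, breakdown, uptake and sensing was measured beside the 10, of which 34 passed the filter. After light damage 8 were called higher and 1 lower than in control, where 25.8% of all genes were called, with a median log2 fold change of 0.20. With A74, 2 were called higher and 6 lower than with light damage alone, where 18.3% of all genes were called, with a median of -0.23. In A74 against control edgeR called 0, with 2 at an unadjusted p under 0.05 and 0 called by DESeq2. With the Y term the count for A74 against light damage was 4, and P2rx7, P2rx4, Enpp2 and Slc29a2 were no longer called.

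Of the other receptors, 5 of 10 tested were called higher after light damage, where 13% of all genes were. P2rx7, the ATP-gated channel of the series title, had 2.17, 1.61 and 1.05 CPM in light damage libraries, against 0.212, 0.724 and 0.472 CPM in controls, without overlap. The log2 difference was 1.74 (SE 0.42, edgeR adjusted p = 0.00648). Only 1 A74 library and 1 control were over the cutoff of the count filter for P2rx7, against 3 light damage libraries. A difference was thus built into its entry, and its call is no support, although it is among the 5. Gpr34, a lysophosphatidylserine receptor of microglia, rose by 1.64, P2ry14, a receptor for UDP-sugars, by 1.12, P2ry13, an ADP receptor, by 0.94, and P2rx4, another ATP-gated channel, by 0.57. P2ry12, the ADP receptor of resting microglia, had 10.3 ± 1.57 CPM in light damage and 6.67 ± 2.56 CPM in control (SD, n = 3 each) and was not called (log2 fold change 0.63, edgeR adjusted p = 0.0893). Several of these rested on single libraries. Leaving out light damage replicate 2 ended the call of P2ry13 (edgeR adjusted p = 0.0803). P2rx4 was not called without control replicates 1 or 2 or light damage replicate 1 (edgeR adjusted p = 0.0542, 0.0627 and 0.0538). For P2ry14 this held without control replicates 2 or 3 or light damage replicates 1 or 2 (edgeR adjusted p = 0.114, 0.0516, 0.0569 and 0.0887).

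With A74, 4 of the 10 receptors were called lower than with light damage alone, where 9.19% of all genes were. P2rx7 is among the 4, but it passed the count filter largely through its light damage libraries, so its call is no support. The log2 fold change was -1.53 for Gpr34 (SE 0.25, edgeR adjusted p = 0.000864), -1.32 for P2ry13 (SE 0.26, edgeR adjusted p = 0.00276), -1.30 for P2rx7 (SE 0.40, edgeR adjusted p = 0.0325) and -0.45 for P2rx4 (SE 0.15, edgeR adjusted p = 0.0488). Gpr34 and P2ry13 stayed called without any 1 library, and with the Y term Gpr34 had -0.95 (edgeR adjusted p = 0.0256). For P2rx7 the edgeR adjusted p was 0.156 and 0.0858 without light damage replicates 1 and 2, and 0.0947, 0.0546 and 0.0982 without A74 replicates 1, 2 and 3. For P2rx4 it was 0.210 and 0.0967 without the same light damage replicates, and 0.162, 0.110 and 0.0562 without the same A74 replicates. P2rx7 was also not called with the Y term (-0.88, edgeR adjusted p = 0.370), the tissue term (edgeR adjusted p = 0.0690) or DESeq2 (DESeq2 adjusted p = 0.0804), nor P2rx4 with the Y term (edgeR adjusted p = 0.157) or DESeq2 (DESeq2 adjusted p = 0.0665).

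Of 8 genes tested for adenosine uptake and removal, Slc29a3, an intracellular nucleoside transporter, rose by 0.76 after light damage (SE 0.14, edgeR adjusted p = 0.00105) and was lower with A74 than with light damage by a log2 ratio of -0.88 (SE 0.14, edgeR adjusted p = 0.000734). Pnp, which splits inosine and guanosine, rose by 0.47 (SE 0.15, edgeR adjusted p = 0.0272) and was not called without control replicates 1 or 3 or light damage replicate 2 (edgeR adjusted p = 0.113, 0.0946 and 0.135). Slc29a2, an equilibrative nucleoside transporter, was higher with A74 than with light damage alone (0.44, SE 0.10, edgeR adjusted p = 0.00592), but not called with the Y term (0.37, edgeR adjusted p = 0.0844). Its light damage libraries lay below the controls (-0.23, edgeR adjusted p = 0.0941), a difference called once light damage replicate 3 was left out (edgeR adjusted p = 0.0142).

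Of 10 other nucleotidase genes tested, Alpl, the tissue-nonspecific alkaline phosphatase, which can also form adenosine from AMP, was lower after light damage. It had 137, 154 and 160.2 CPM in light damage libraries, against 206, 191 and 185 CPM in controls (log2 fold change -0.37, SE 0.07, edgeR adjusted p = 0.000742). With A74 it had 186, 188 and 198 CPM, a log2 ratio to light damage of 0.34 (SE 0.07, edgeR adjusted p = 0.00223). Both calls held without any 1 library. Enpp2, which encodes the lysophospholipase autotaxin, was lower with A74 than with light damage (-0.60, SE 0.15, edgeR adjusted p = 0.0253), but not called without light damage replicates 1 or 3 or A74 replicates 1 or 3 (edgeR adjusted p = 0.0696, 0.0517, 0.0803 and 0.0851). In light damage against control Enpp2 had 0.42 (edgeR adjusted p = 0.0691), called without control replicate 2 (edgeR adjusted p = 0.0190). Of 6 release genes tested, Panx1, which forms ATP-permeable channels, rose by 0.44 after light damage (SE 0.15, edgeR adjusted p = 0.0360). It was not called without control replicates 1 or 2 or light damage replicate 1 (edgeR adjusted p = 0.0776, 0.158 and 0.117).

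**Figure D4:**
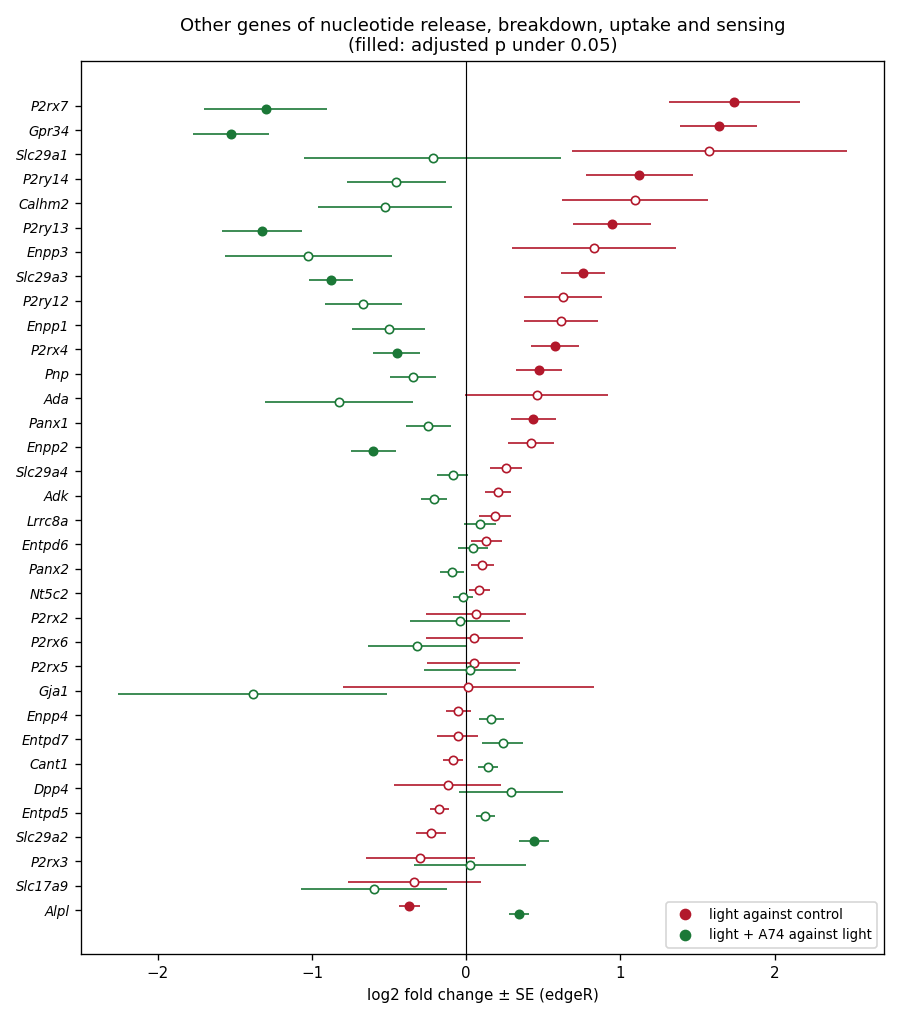
Log2 fold changes with SE of the 34 other genes tested, ordered by light damage against control, for that comparison and for light damage with A74 against light damage. Filled points have an edgeR adjusted p under 0.05. P2rx7 and Gpr34 are highest after light damage, at 1.74 and 1.64, and Alpl is lowest, at -0.37.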

How the data were processed

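RNA sequencing of 9 retina libraries gave 1 table of counts per gene, which the authors deposited as whole, unscaled numbers. The submitters' processing notes name RSEM 1.3.1, Bowtie2, the tool DESeq2 in version 1.4.5 and build GRCm39, with no roles. The annotation and the handling of strand were not stated (not given in the sources used here), so overlapping and antisense genes are uncertain. Groups and replicate numbers come from the titles.

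Genes kept by filterByExpr (minimum count 10, in effect 0.641 CPM in 3 libraries) were scaled by TMM. The edgeR (4.0.16, R 4.3.3) robust quasi-likelihood test used 1 fit of all 9 libraries, and calls needed a Benjamini-Hochberg adjusted p under 0.05 over 17272 genes. The SE is the log2 fold change over the square root of F. Log2 CPM used a prior count of 2. The test was tried on simulated counts first, for light damage against control. It recovered 74 of 100 genes changed 2-fold and 97 of 100 changed 4-fold, with 21 false calls among the unchanged genes. That is a larger share of the calls than a threshold of 0.05 aims at. The simulation gave all groups the control means apart from the changed genes, far fewer than were called in the data. It held no sex-linked or anterior eye differences between libraries of a group, so it does not measure performance on these data.

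Genes, lists, motifs and alternatives were chosen with earlier results of these data known. The text names all 10 genes, the listed genes called in light damage against control or A74 against light damage, and the 3 genes most like each called one; P2ry12 and Slc29a1 were picked after their values were seen, and Acp3 is counted as Acpp. GENCODE M21 and RefSeq, both of GRCm38, gave exon lengths and promoters. Alternatives were DESeq2 size factors, no filter, DESeq2 1.42.0, the compared groups alone, a replicate block, terms for anterior tissue or Y transcripts, a minimum fold of 1.5, and fits without 1 or 2 libraries. Same-numbered light damage and control libraries deviated from their group means together (r = 0.12, 0.25 and 0.31 over genes). Their numbers were taken as pairs in the replicate block only, from the data and not the labels. The main fit used no pairs. In both groups replicates 1 and 2 had Y-linked counts and high anterior eye genes, and replicate 3 had neither. Pairing cannot be told apart from these differences.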

Additional observations from a re-analysis of the deposited data

How the results depend on the processing

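P2ry6 passed the count filter only through its light damage libraries, so its calls in both comparisons with light damage, which recurred under each alternative fit, are no support. Within the sets split by anterior eye genes it was called in the libraries high in them and not in the others (edgeR adjusted p = 0.332 for light damage against control and 0.137 for A74 against light damage). Nt5e in light damage against control was called in all alternative fits but the test against a 1.5-fold change (edgeR adjusted p = 0.234). The 1.5-fold test called 1 of the 10 genes, P2ry6, in light damage against control and 1 in A74 against light damage, 1 listed gene in each, and 248, 148 and 5 of all genes for light damage against control, A74 against light damage and A74 against control. For A74 against light damage, 2 of the 10 genes were called with the 2 groups alone (Nt5e and Entpd2 were lost), and with the Y term 1, with 4 listed genes and 745 of all genes. For A74 against control, 1 of the 10 (Nt5e) was called without a filter and with the 2 groups alone, 1 listed gene (Gja1) with the tissue term, and of all genes 718 without a filter, 551 with the 2 groups alone, 96 with the Y term, 296 by DESeq2 and 940 without light damage replicate 3 and A74 replicate 1, against 154.

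With the replicate block in light damage against control, 5 of the 10 genes were called, Adora1 in addition, and no other call of a named gene changed. In the other comparisons same-numbered libraries did not all correlate (lowest r -0.07 and -0.09), and 4 and 3 of 6 libraries correlated best with their own number. There the block called 4 and 0 of the 10 genes, with Entpd2 and P2rx4 lost and P2ry2 gained in A74 against light damage.

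Leaving out 1 library gave 2 to 6 of the 10 genes, 6 to 11 listed genes and 2842 to 5395 of all genes for light damage against control. For A74 against light damage it gave 1 to 5, 5 to 7 and 1731 to 4448, and for A74 against control 0, 0 and 21 to 320. Directions turned only in values that were not called. In A74 against control, ranges without 1 library were -0.38 to 0.37 for Entpd2, -0.21 to 0.00063 for Adora1, -0.033 to 0.20 for Adora2b, -0.22 to 0.018 for P2ry1, -0.13 to 0.46 for P2ry2 and -0.12 to 0.71 for P2ry6. There Adora1 had 0.0084 with the tissue term and 0.14 with the Y term, and Adora2b -0.025 without light damage replicate 3 and A74 replicate 1. In A74 against light damage Entpd1 had -0.22 to 0.00073 without 1 library and 0.059 without those 2. DESeq2 did not call P2ry14 and Panx1 in light damage against control (DESeq2 adjusted p = 0.0786 and 0.0701). The causes were not tested. Precision is limited by counts of at most 60 in each library for Entpd1, Entpd2, P2ry2 and P2ry6 and up to 15 for Adora2a.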

Other observations

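A ratio of enzyme transcripts was computed as Nt5e over the summed Entpd1, Entpd2 and Entpd3 in CPM per library. The ratio, not scaled for length, was chosen after the values of these genes were seen, so its p-values give no support. It was 20.4, 17.1 and 20.5 with A74, 8.40, 11.1 and 13.6 after light damage and 28.2, 20.9 and 20.4 in control. The light damage libraries were below both other groups, with a log2 difference of -1.08 from control and of 0.83 for A74 against light damage (exact two-sided permutation p = 0.1 in each, the smallest possible), and of -0.25 for A74 against control (exact permutation p = 0.3).

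Slc29a1, the equilibrative nucleoside transporter gene that moves adenosine across the plasma membrane, stood out within groups. It had 49.3 CPM in A74 replicate 1 and 54.9 CPM in light damage replicate 1, against 9.51 and 11.9 CPM in the other A74 libraries, 14.2 and 13.2 CPM in the other light damage libraries, and 8.20 to 10.2 CPM in controls. It was called in no comparison (log2 fold change 1.58 for light damage against control, SE 0.89, edgeR adjusted p = 0.262). Both libraries were among the 5 with high anterior eye genes, of which the other 3 had 8.20 to 14.2 CPM.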
